A study of Homo sapiens with 24 samples.

Results

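The genes described here code for the proteins of the mitochondrial ribosome. They were taken as every gene whose probe sets are named by a single symbol that starts with MRPL or MRPS followed by a digit, which gave 77 of the 19775 genes on the array. Of these, 75 are protein-coding, 48 with an MRPL and 27 with an MRPS symbol. The others are MRPL20-AS1, a long non-coding RNA, and MRPL45P2, a pseudogene of MRPL45. A gene was represented by the brightest of its probe sets, with no filter on low values. The 77 genes had 142 probe sets in all: 40 genes had 1, and 37 had several, at most 5.

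The study asked what changes when the kinase MLK4 is switched on in colon cancer cells whose own MLK4 carries loss-of-function mutations. MLK4 (gene MAP3K21) belongs to the mixed-lineage kinases, which can activate JNK signalling. HCT15 and HT115 are established human colorectal cancer lines. Tetracycline, given for 24 h, was used to induce wild-type MLK4 (WT) in both lines, the Y330H form in HCT15 as a control, and the E314K form in HT115 as a control. Total RNA was hybridised to 24 Affymetrix arrays, in 8 groups of 3: for each pair of line and form, 3 arrays with Tet in the title and 3 without it, called untagged here. The labels do not say what the untagged cultures received, nor whether each form is held by 1 clone or by a pool of cells. They give each array a repeat number from 1 to 3 but do not say that these were separate cultures, so a p-value measures only the spread between arrays, which may be technical.

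Mitochondrial ribosomes translate the few messages of the mitochondrial genome, all of which code for subunits of the respiratory chain and the ATP synthase. Their RNA is made in the mitochondrion, but all of their proteins are made in the cytosol from nuclear genes and imported. The large subunit joins amino acids, and the small subunit holds the message and reads its codons. Proteins that carry a low number have a counterpart of that number in bacteria, and those with higher numbers are additions of the mitochondrial ribosome. By this split 44 of the coding genes have a bacterial counterpart and 31 do not. MRPS30 and MRPS18A sit in the large subunit in spite of their symbols, so that 50 coding genes belong to the large and 25 to the small subunit.

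All values are on the log2 scale of the deposited RMA signals, on which a step of 1 is a doubling. The 6 HT115 WT arrays stand on a scale of their own, with array medians of 5.55 to 5.61 against 6.38 to 6.48 on the other 18, so levels were set side by side only within the 18. The exception is the mean of a gene over all arrays, by which brightness was ranked. The probe set for MAP3K21 did not register the inductions: its difference was between -0.19 and 0.08 in the 4 pairs and passed no test. The sources used here do not give whether it lies within the induced construct. The 6 epithelial markers EPCAM, KRT8, KRT18, KRT19, CDH1 and CLDN4 had group means of 10.2 to 13.6 on the 18 arrays. Fibroblast markers were at 3.77 to 7.30, endothelial markers at 4.48 to 6.26 and leukocyte markers at 2.88 to 8.20. Both HCT15 WT arrays numbered 1 stood apart in the ACTB control of RNA quality. Their ACTB 3' probe sets lay above the 5' ones by 1.17 (untagged) and 0.93 (Tet), against 0.35 to 0.53 on the other 4 arrays of that pair. The GAPDH control had no 3' excess on them: its difference was -0.059 (untagged) and -0.14 (Tet), against -0.26 to -0.20 on the other 4.

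The mitochondrial ribosomal genes were bright in every library. On the mean of all arrays 76 of the 77 were among the brighter 50% of all genes, with a median percentile of 92.6. MRPL52, a large-subunit protein, was the brightest at 12.98, followed by MRPL51 at 12.54 and MRPS15 at 12.49. The dimmest coding gene was MRPL44 at 9.97, and only the pseudogene MRPL45P2, at 5.83, lay below the middle of all genes. Because these genes are bright, the share of members above 0 in each induction is set beside that of the brighter 9887 genes as well as that of all genes, and so are the shares called between derivatives and lines.

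With wild-type MLK4 in HCT15, none of the 77 genes passed the test, which was limma's moderated test with Benjamini-Hochberg adjustment over all 19775 genes and a threshold of 0.05. Among all genes 0.698% passed. At an unadjusted p under 0.05 there were 4 members, or 5.19%, against 9.36% of all genes. The median difference, Tet minus untagged, was 0.045 over the members, -0.034 over all genes and 0.012 over the brighter genes. It was above 0 in 53 members, which is 68.8% against 41.9% of all genes and 52.8% of the brighter ones. On the same arrays the 6 epithelial markers had a median of 0.17, with 4 above 0 and 1 called, KRT19, which was higher by 0.70 (SE 0.11). EPCAM went from 12.66 untagged to 12.60 with Tet, and CDH1 from 12.67 to 12.59. The 5 intestinal markers VIL1, CDX1, CDX2, LGALS4 and CDH17 had a median of -0.32 with none called. The part of these markers in the result was not tested. For a coding member the widest 95% intervals of the difference reached -0.46 and 0.62.

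**Figure D1:**
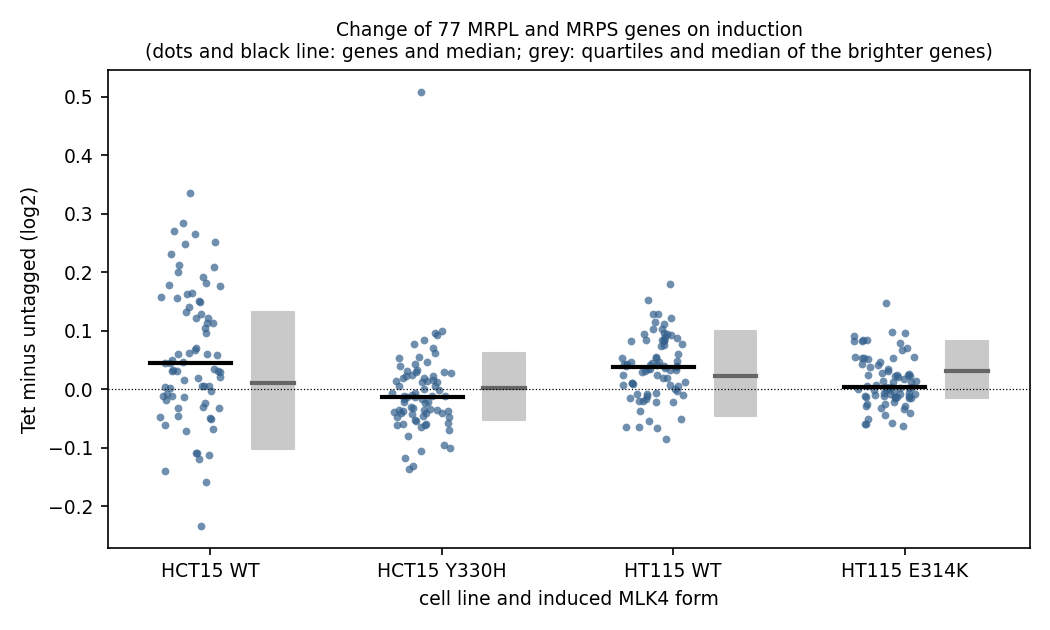
Difference of each of the 77 MRPL and MRPS genes between Tet and untagged arrays (log2, y axis) in the 4 pairs of line and induced MLK4 form (x axis); each dot is a gene, the black line is their median, and the grey box with its line gives the quartiles and median of the brighter genes. The medians were 0.045 (HCT15 WT), -0.012 (HCT15 Y330H), 0.038 (HT115 WT) and 0.0050 (HT115 E314K), and the dot at 0.51 is the pseudogene MRPL45P2.

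MRPS10, a small-subunit protein with a bacterial counterpart, had the smallest p. Its untagged HCT15 WT arrays read 10.60, 10.61 and 10.52, and its Tet arrays 11.09, 10.82 and 10.82. The groups did not overlap, and the difference of 0.33 (SE 0.11, 1.26-fold) had an adjusted p of 0.219. Its other probe sets, of which there are 2, had differences of 0.30 and 0.30. In HCT15 the array numbers were taken to pair the Tet and untagged arrays, from correlations in these data and not from the labels. The main fit did not use these pairs. When these pairs entered the fit as a replicate block, MRPS10 was the 1 member that passed (adjusted p = 0.0256), beside 4.86% of all genes. Its differences within the pairs were 0.49, 0.21 and 0.31.

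The other members with small p in this pair were no larger. MRPS23, a small-subunit protein without a bacterial counterpart, read 11.71, 11.62 and 11.56 untagged and 11.98, 11.91 and 11.79 with Tet, a difference of 0.27 (SE 0.12, adjusted p = 0.514). MRPL32, which is cut by the mitochondrial m-AAA protease before it joins the large subunit, read 11.11, 11.21 and 11.21 untagged and 11.28, 11.48 and 11.39 with Tet. That is a difference of 0.20 (SE 0.08, adjusted p = 0.428). In both genes all Tet arrays lay above all untagged ones. MRPS30 had a difference of 0.18 (SE 0.09, adjusted p = 0.575), again without overlap. MRPL49, of the large subunit, differed the other way by -0.23 (SE 0.11, adjusted p = 0.512), with untagged arrays at 10.60, 11.04 and 10.94 and Tet arrays at 10.43, 10.74 and 10.70, which overlap.

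In all, 9 members had Tet arrays that lay wholly above the untagged ones, 11.7% against 6.41% of all genes and 10% of the brighter genes. They were MRPL21, MRPL32, MRPL34, MRPL46, MRPL58, MRPS10, MRPS17, MRPS23 and MRPS30. No member lay wholly below, against 7.46% of all genes. Over the pairs, 33 members were higher in all 3, or 42.9% against 18.6% of all genes and 29.1% of the brighter genes, and 8 were lower in all 3, or 10.4% against 21.3% and 20.9% of the brighter genes.

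The median in HCT15 WT leans on single arrays. It was 0.0097, with 43 members above 0, without untagged array 1, 0.024 without Tet array 2 and 0.070 without Tet array 1. Averaged over the 77 genes and centred on the 18 arrays, both arrays numbered 1 were the lowest arrays of their groups: untagged array 1 stood at -0.11 against 0.032 and 0.011, and Tet array 1 at -0.044 against 0.11 and 0.045. They are the arrays with the high ACTB 3' to 5' difference. Without both of them the median was 0.043, with 57 members above 0.

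**Figure D2:**
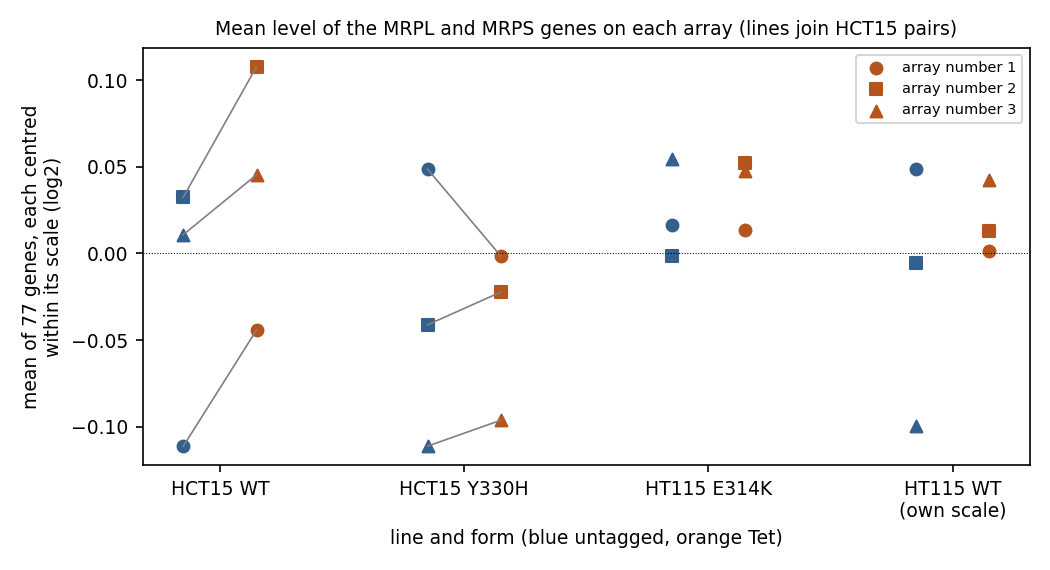
Mean level of the 77 genes on each array (log2, y axis), each gene centred on its mean over the arrays of its scale, for the 4 pairs of line and form (x axis); blue is untagged, orange is Tet, symbols give the array number, and grey lines join the HCT15 pairs. All 3 HCT15 WT pairs slope upward, and HT115 WT untagged array 3 stands at -0.099 below its group.

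By subunit, no group of genes held a called member in HCT15 WT. Among large-subunit genes the median was 0.048, with 35 of 50 above 0, and among small-subunit genes 0.035, with 18 of 25 above 0. Genes with a bacterial counterpart had a median of 0.046 and those without one 0.033. The paralogs MRPS18A, MRPS18B and MRPS18C, which descend from 1 bacterial protein, had differences of 0.25 (SE 0.16), 0.019 (SE 0.13) and 0.031 (SE 0.096). MRPL12, which forms the stalk that binds translation factors, had 0.070 (SE 0.19), and MRPS12, a protein of the decoding centre, 0.19 (SE 0.15). None of these passed.

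With wild-type MLK4 in HT115, again no member passed limma's test, against 0.147% of all genes, and none had an unadjusted p under 0.05, against 7.77%. The median was 0.038 (all genes -0.019, brighter genes 0.024). Of the members 58 were above 0, or 75.3% against 44.5% of all genes and 59.1% of the brighter ones. In no member did the Tet and untagged arrays separate, while 14.4% of all genes separated in either direction. The smallest p belonged to MRPL33, a large-subunit protein, with a difference of 0.18 (SE 0.15, adjusted p = 0.926), followed by MRPL21 with 0.15 (SE 0.13), MRPS30, MRPL1 with 0.11 and MRPL32 with 0.085. MRPS30 had 0.10, MRPS12 0.10, MRPL12 0.047, MRPS18A 0.038, MRPS18B 0.049 and MRPS18C 0.078. This median rests on untagged array 3, on which only 9 of the 77 genes were above their own mean over the 6 arrays. Without it the median was 0.00071, with 39 members above 0, and without untagged array 1 it was 0.070. Quantile normalization gave 0.019, with 50 members above 0.

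The mutant forms gave no called member either, and no called gene of any kind. With Y330H in HCT15 the median was -0.012, against -0.020 over all genes and 0.0021 over the brighter genes. Of the members 31 were above 0, or 40.3% against 42.6% of all genes and 51.1% of the brighter ones. The sign of this median turned with single arrays: it was 0.029, with 48 members above 0, without untagged array 1, 0.015 without Tet array 3, and -0.048, with 20 above 0, without untagged array 3. With quantile normalization it was 0.0074, with 44 above 0. No member had an unadjusted p under 0.05, against 3.1% of all genes. The pseudogene MRPL45P2 had the largest difference, 0.51 (SE 0.29, adjusted p = 1.00), from untagged values of 6.93, 6.37 and 6.22 to 7.52, 7.05 and 6.47 with Tet, which overlap. MRPL51 (-0.10), MRPL9 (-0.11), MRPS35 (-0.12) and MRPL15 (-0.095) followed it by p. MRPS18A, MRPS18B and MRPS18C had 0.055, -0.012 and 0.097. MRPS10 lay at 11.04, 10.79 and 10.61 untagged and at 11.00, 10.70 and 10.71 with Tet. With E314K in HT115 the median was 0.0050, against 0.010 over all genes and 0.031 over the brighter genes. Of the members 45 were above 0, or 58.4%, which is above the 54.3% of all genes and below the 67.7% of the brighter ones. This sign turned as well: with equal array medians the median was -0.021, with 25 members above 0, and with quantile normalization -0.0068, with 35 above 0. Without Tet array 2 or untagged array 2 it was -0.0038 or -0.0031, and without untagged array 3 it was 0.036, with 58 above 0. No member had an unadjusted p under 0.05, against 1.58% of all genes. The smallest p belonged to MRPS18B, with 0.15 (SE 0.13), followed by MRPS30, MRPS5 (0.091), MRPS27 (0.067) and MRPL44 (0.097). MRPS18A and MRPS18C had 0.041 and -0.029. MRPL12, MRPS12 and MRPS30 had differences of 0.054, 0.046 and 0.023 with Y330H and of 0.054, 0.082 and 0.079 with E314K.

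Setting the wild-type induction against the mutant one within a line tests the difference itself. In HT115 the WT and E314K arrays stand on different scales, so form and scale cannot be told apart in this contrast. In HCT15 no member passed (0.0607% of all genes did), and 1, MRPS10, had an unadjusted p under 0.05, against 3.78% of all genes. Its difference between the inductions was 0.35 (SE 0.15, adjusted p = 1.00, limma). The median was 0.068 over the members and 0.0082 over all genes, and 59 members were above 0, or 76.6% against 51.7% of all genes and 53.7% of the brighter ones. Leaving out single arrays moved this median between 0.028, with 46 members above 0 (without WT untagged array 1), and 0.11, with 62 above 0 (without Y330H untagged array 3). Quantile normalization gave 0.038, with 47 above 0. MRPL32 had 0.24 (SE 0.12), MRPS23 0.32 (SE 0.17) and MRPL10 0.29 (SE 0.20). In HT115, where 0.0152% of all genes passed, no member passed or had an unadjusted p under 0.05 (2.85% of all genes did), and the median was 0.020 with 48 members above 0, or 62.3% against 41.5% of all genes and 46.8% of the brighter ones. It was -0.013, with 35 members above 0, without WT untagged array 3, -0.0029 without E314K untagged array 3, and 0.056, with 58 above 0, without WT untagged array 1. The smallest p belonged to MRPL33 (0.21), MRPS5 (-0.15), MRPL1 (0.13), MRPL3 (-0.11) and MRPL32 (0.095). The widest 95% intervals over coding members reached -0.61 and 0.77 in HCT15, and -0.65 and 0.68 in HT115.

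The HCT15 derivatives for WT and for Y330H were also compared with each other on untagged arrays. Here 4 members passed, or 5.19% against 5.97% of all genes, and the members' share lay near the background. In the fit of the brighter genes 9.21% of members passed against 12.9%. Higher in WT were 2 (2.6% against 3.38%) and lower 2 (2.6% against 2.59%). MRPS5, of the small subunit, read 11.64, 11.30 and 11.29 in WT and 10.81, 10.87 and 10.84 in Y330H, and was higher by 0.57 (SE 0.11, adjusted p = 0.00310). Its other 3 probe sets, all dimmer, had differences of -0.058, -0.13 and -0.089 that did not pass, and on the mean of its probe sets MRPS5 had 0.076 and did not pass (adjusted p = 0.795). MRPS9, also of the small subunit, was higher by 0.44 (SE 0.12, adjusted p = 0.0271), at 11.27, 10.97 and 10.94 against 10.53, 10.77 and 10.58. MRPS22, a small-subunit protein mutated in some mitochondrial diseases, was lower by 0.45: it read 11.76, 11.60 and 11.59 in WT and 12.08, 12.14 and 12.07 in Y330H (difference -0.45, SE 0.10, adjusted p = 0.00642). MRPL47, of the large subunit, read 11.60, 11.58 and 11.52 against 11.77, 12.18 and 12.06 (difference -0.43, SE 0.12, adjusted p = 0.0403). In each of these 4 genes the derivatives did not overlap, which their choice by the test favours. Over all members 21 did not overlap, or 27.3% against 18.7% of all genes. Among the brighter genes 15.8% of members lay wholly higher in WT against 13.4%, and 11.8% wholly lower against 11.4%. MRPL20-AS1 had 0.32 (SE 0.10, adjusted p = 0.0554).

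The same contrast on the separate Tet arrays called 7 members, with 13.2% of all genes called. MRPS5 (0.56, adjusted p = 0.00194), MRPS22 (-0.35, adjusted p = 0.0200) and MRPL47 (-0.38, adjusted p = 0.0471) passed there too, and MRPS9 did not (0.26, adjusted p = 0.153). MRPS31, MRPS25 and MRPL19 passed there as higher in WT and MRPL49 as lower. The Tet arrays are no independent repeat, because in HCT15 they were taken to pair with the untagged ones. Over the members, deviations of same-numbered arrays correlated at 0.94, 0.89 and 0.53 (WT) and 0.88, 0.73 and 0.67 (Y330H). No member passed on untagged arrays when only the 6 arrays were fitted, where 0.86% of all genes passed, and 2 passed without WT array 1 or without Y330H array 3. With the array number as a replicate block none passed either, although numbers do not pair arrays across the derivatives. MRPS22 and MRPL47 both lie on chromosome 3, where 10.3% of the brighter genes were called lower in WT, against 1.55% to 5.59% on the other chromosomes. MRPS5 and MRPS9 lie on chromosome 2, where 5.26% of the brighter genes were called higher. Neither chromosome moved one way: the other members on 3, MRPS25 and MRPL3, had 0.33 and 0.083, and the median of the brighter genes there was -0.0016. On chromosome 2 MRPL33 had -0.25, and 4 of the 7 members were above 0. These chromosomes were chosen after the values were seen. Of the 5 intestinal markers 4 were lower in WT than in Y330H, with a median of -1.09. Their part in the result was not tested.

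More members passed between the lines than in any other comparison here. Untagged HCT15 arrays (WT and Y330H, weighted equally) were set against untagged HT115 E314K arrays, which are on the same scale. In this contrast 37 members passed, or 48.1%, against 37.6% of all genes and, in a fit of the brighter genes alone, 53.9% against 56.2%. The share lies near that of bright genes. In HCT15 13 members were higher (16.9% against 21.2% of all genes) and 24 lower (31.2% against 16.4%). In the fit of the brighter genes 34.2% of members were lower against 24.3%, and 19.7% were higher against 31.9%. The median member difference was -0.054, with 33 members above 0, and that of all genes 0.078, with 61.1% above 0. Differences were small: 12 of the 37 reached 1.5-fold and 2 reached 2-fold. All 37 had the same sign with either HCT15 derivative alone. Line and any batch in which its arrays were made cannot be told apart.

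MRPS21, a small-subunit protein with a bacterial counterpart, was the coding member that differed most. It read 10.81, 11.04 and 11.17 in untagged HCT15 WT and 11.73, 11.12 and 11.37 in Y330H, against 10.13, 9.90 and 9.44 in HT115 E314K. All 6 HCT15 arrays lay above all HT115 arrays, and the difference was 1.38 (SE 0.16, 2.60-fold, adjusted p = 4.27e-07). MRPL28, of the large subunit, read 11.26, 11.67 and 11.55, then 11.25, 11.20 and 11.30, against 10.71, 10.48 and 10.59. It was higher by 0.78 (SE 0.10, adjusted p = 9.44e-07). MRPL46, a large-subunit protein without a bacterial counterpart, was higher by 0.75 (SE 0.10, adjusted p = 1.73e-06), at 10.73 to 11.16 in HCT15 and 10.19 to 10.30 in HT115. The pseudogene MRPL45P2 was higher by 1.49 (SE 0.25), from a low level of 4.43 to 5.68 in HT115 to 6.22 to 6.93 in HCT15.

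Of the MRPS18 paralogs, 2 passed on their brightest probe set. MRPS18C was higher in HCT15 by 0.54 (SE 0.08, adjusted p = 1.62e-05), and its other probe sets, both dimmer, were higher by 2.25 and 1.59. MRPS18B was higher by 0.30 (SE 0.12, adjusted p = 0.0470), with overlap. This result stayed the same in 8 of 22 alternatives, and on the Tet arrays the difference was 0.16 and did not pass (limma adjusted p = 0.350). MRPS18A, the one in the large subunit, had -0.32 (SE 0.14) and did not pass (adjusted p = 0.0792), while its other, dimmer probe set had -0.41 and passed (adjusted p = 0.0138). The remaining higher genes that are named by size were MRPL49 (0.53), MRPS2 (0.47), MRPS26 (0.38) and MRPS14 (0.30).

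Among the lower members MRPS35, a small-subunit protein without a bacterial counterpart, had the largest difference. It read 10.78, 10.68 and 10.62 in HCT15 WT and 10.86, 10.54 and 10.62 in Y330H, against 11.50, 11.44 and 11.46 in HT115, a difference of -0.78 (SE 0.09, 1.72-fold, adjusted p = 3.77e-07). MRPS30 read 11.28 to 11.50 in HCT15 and 12.01 to 12.20 in HT115 (difference -0.77, SE 0.08, adjusted p = 5.80e-08), and its other probe sets had -1.25 and -1.54. MRPS25 was lower by 0.73 on the log2 scale (difference -0.73, SE 0.09), MRPL47 had -0.71 and MRPL32 -0.68 (SE 0.07). MRPL36, the counterpart of one of the smallest bacterial ribosomal proteins, had -0.61, MRPL21 -0.60, MRPS12 -0.59, MRPS17 -0.57 and MRPS22 -0.50. In all of these 10 genes the 6 HCT15 arrays lay below the 3 HT115 arrays, which their choice as the largest falls favours. Over all members this held for 20, or 26% against 13.6% of all genes. Among the brighter genes it held for 26.3% of members against 18.3%. MRPS12 was lower on each of its 4 probe sets, with differences from -0.51 to -0.94.

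By subunit, 5 large-subunit genes were higher and 14 lower of 50, and 7 small-subunit genes higher and 10 lower of 25. Genes with a bacterial counterpart gave 8 higher and 12 lower of 44, and the others 4 higher and 12 lower of 31. Of the 36 further probe sets of called genes, 33 had the sign of the brightest. The exceptions were 1 probe set each of MRPL4 (0.57 and called, against -0.37 on the brightest), MRPL43 (0.21, against -0.45) and MRPS27 (-0.053, against 0.27). Between separate Tet arrays of the same groups 30 members passed, of which 28 were among the 37, all 28 with the same sign. The share of all genes that passed there is not given, so these counts do not set the members apart. In HCT15 the Tet arrays were taken to pair with the untagged ones, so they are no independent repeat.

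**Figure D3:**
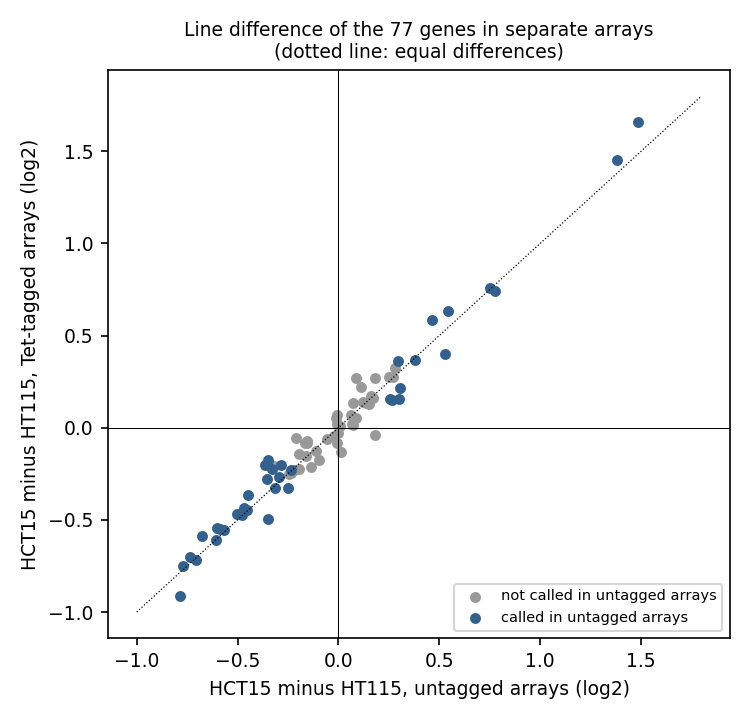
Difference between HCT15 and HT115 E314K for each of the 77 genes on untagged arrays (log2, x axis) and on the separate Tet arrays of the same groups (log2, y axis); blue genes passed on untagged arrays, grey ones did not, and the dotted line marks equal differences. All 37 blue genes have the same sign on both axes.

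The lower members were unevenly spread over chromosomes. Chromosomes 3, 7 and 12, picked after the values were seen, hold 10 members: MRPL3, MRPS22, MRPS25 and MRPL47 on 3, MRPL32, MRPS17 and MRPS33 on 7, and MRPS35, MRPL42 and MRPL51 on 12. Of these, 9 were lower in HCT15 and 0 higher, and MRPL3 (-0.098) did not pass. The genes around them lay low as well: of the 1592 brighter genes on these chromosomes 43.8% were lower and 14.3% higher, with a median of -0.24. On the other chromosomes 15 of 67 members were lower and 13 higher, against 18.7% and 32.8% of the brighter genes. By chromosome, the median of the brighter genes was -0.25 on 3, -0.26 on 7 and -0.21 on 12, and between 0.057 (chromosome 5) and 0.27 (chromosome 4) on the others that hold members.

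Promoters were read from RefSeq (GRCh38.p14) as the 250 bases before to 50 after each start, for the 67 coding members that matched. The bases before the start are shown for 6 genes that differed between the lines, 3 higher and 3 lower in HCT15, to show how differently built promoters of 1 complex can be. Each is written 5′ to 3′ on the strand of its gene, with matches to the motifs below in capitals, on either strand. The stretch of MRPS12 stops at the start of its neighbour, and that of MRPL47 leaves out 8 bases that RefSeq counts within the gene.
MRPS21, chr1:150293611-150293860, plus strand: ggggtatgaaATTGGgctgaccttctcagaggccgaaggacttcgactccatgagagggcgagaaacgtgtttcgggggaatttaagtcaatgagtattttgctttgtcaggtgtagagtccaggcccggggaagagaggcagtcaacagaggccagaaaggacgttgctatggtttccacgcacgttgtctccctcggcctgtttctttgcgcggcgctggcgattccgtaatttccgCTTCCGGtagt
MRPS26, chr20:3045802-3046051, plus strand: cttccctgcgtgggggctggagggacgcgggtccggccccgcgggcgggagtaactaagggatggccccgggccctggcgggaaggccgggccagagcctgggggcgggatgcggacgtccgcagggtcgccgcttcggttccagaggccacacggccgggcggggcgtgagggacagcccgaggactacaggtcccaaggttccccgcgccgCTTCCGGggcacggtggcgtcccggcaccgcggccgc
MRPL46, chr15:88467389-88467638, minus strand: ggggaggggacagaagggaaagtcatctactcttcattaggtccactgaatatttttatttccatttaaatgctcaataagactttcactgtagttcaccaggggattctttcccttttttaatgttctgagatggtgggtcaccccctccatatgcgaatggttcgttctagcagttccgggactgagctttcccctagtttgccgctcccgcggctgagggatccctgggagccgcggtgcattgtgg
MRPS12, chr19:38930764-38930943, plus strand: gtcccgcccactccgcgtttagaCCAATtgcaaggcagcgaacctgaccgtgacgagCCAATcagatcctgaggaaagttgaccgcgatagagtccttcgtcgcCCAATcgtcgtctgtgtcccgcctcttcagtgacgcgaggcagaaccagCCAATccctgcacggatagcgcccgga
MRPL47, chr3:179604647-179604888, minus strand: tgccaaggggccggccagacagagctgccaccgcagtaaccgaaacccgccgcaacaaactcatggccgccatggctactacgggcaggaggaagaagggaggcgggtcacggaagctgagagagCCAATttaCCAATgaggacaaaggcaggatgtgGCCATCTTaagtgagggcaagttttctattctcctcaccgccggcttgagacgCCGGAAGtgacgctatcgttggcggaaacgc
MRPS22, chr3:139343744-139343993, plus strand: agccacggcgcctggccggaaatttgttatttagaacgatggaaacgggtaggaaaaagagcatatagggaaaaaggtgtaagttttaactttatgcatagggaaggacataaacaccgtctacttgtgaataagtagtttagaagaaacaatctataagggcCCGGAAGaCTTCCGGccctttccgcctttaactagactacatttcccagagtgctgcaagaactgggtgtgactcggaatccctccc

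Searched on both strands were the ETS motif CCGGAAG, the YY1 motif AANATGGC, the NRF1 motif (GCGCA, any base, GCGC), the E-box CACGTG and the NF-Y motif CCAAT. None of these contains another of them. Of the 67 promoters 41.8% held the ETS letters, against 14.2% of 15842 promoters of protein-coding genes. The YY1 letters were in 35.8% against 7.92%, and in 21 of those 24 members a match reached past the start of the gene. The NRF1 letters were in 11.9% against 8.57%, the E-box in 8.96% against 8.88%, and the NF-Y letters in 29.9% against 36.4%. MRPS12 has the NF-Y letters 4 times in the shown stretch, and MRPS22 has the ETS letters on both strands side by side. In MRPL46 the shown stretch held none of the motifs, but the searched window held 1 YY1 match, which reached past the start. By motif, the median line difference with and without the letters was -0.24 and -0.0087 for ETS (28 members with them), -0.23 and -0.022 for NF-Y (20) and -0.18 and -0.098 for YY1 (24). It was -0.0058 and -0.16 for NRF1 (8), and 0.21 and -0.16 for the E-box (6). A match describes letters only.

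Many of these genes start back to back with a neighbour. Within 1000 bases upstream on the opposite strand lay the start of another protein-coding gene for 18 of the 67, or 26.9% against 10.3% of all promoters. In 17 of these the neighbour was measured. Both partners passed the line test in 6, or 35.3% against 22.5% of the 1381 measured cases over all genes. Both had the same sign in each of these 6, against 73.6% of all such cases. No share over the brighter genes was taken for these neighbours. In their own fit 56.2% of the brighter genes passed between the lines, against 37.6% of all genes. MRPS12 (-0.59) starts 181 bases from SARS2, the mitochondrial serine tRNA synthetase, which had -1.63 (SE 0.11). MRPS18C (0.54) starts 175 bases from HELQ, a DNA helicase, which had 1.01, and MRPS27 (0.27) starts 133 bases from PTCD2, which had 0.61. MRPL32 and the proteasome gene PSMA2 had -0.68 and -0.20, MRPS18B and PPP1R10 0.30 and 0.46, and MRPS2 and PIERCE1 0.47 and 0.47. On the Tet arrays MRPS18B and MRPS27 did not pass (limma adjusted p = 0.350 and 0.120). Over all 17, called or not, 10 had the same sign, or 58.8% against 59.7%, counting MRPL46 and MRPS11 from both sides. These genes, both of the mitochondrial ribosome, start 320 bases apart, and MRPS11 had -0.16 (SE 0.14, adjusted p = 0.416) against 0.75 for MRPL46.

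Other genes of mitochondrial gene expression and respiration were read from lists. With wild-type MLK4 in HCT15, 1 gene of these lists passed: MYC, here among 11 regulators of mitochondrial biogenesis, rose by 0.53 (SE 0.11, adjusted p = 0.0215). None passed among 11 translation factors (median 0.092, 10 above 0), 24 genes of ribosome assembly and RNA processing (0.043), 17 mitochondrial tRNA synthetases (-0.012), 33 subunits of complex I (-0.0050) or 32 subunits of complexes III, IV and V (-0.032, 10 above 0). The 14 genes of mitochondrial transcription (-0.0093) and the 6 measured ribosome proteins with other symbols (0.028) gave none either. Examples with the smallest p were the release factor MTRF1L (0.27, SE 0.11), the RNA polymerase POLRMT (0.43, SE 0.19) and the complex I subunit NDUFB5 (-0.22, SE 0.10). Of 34 cytosolic ribosomal proteins 26 were above 0, with a median of 0.021. With wild-type MLK4 in HT115, and with either mutant form, no gene of these lists passed.

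Between untagged HCT15 WT and Y330H, 3.38% of all genes were called higher in WT and 2.59% lower. In the fit of the brighter genes these shares were 7.25% and 5.68%, beside which the lists are to be read. Of 24 genes of assembly and RNA processing 4 were higher and 0 lower: MTERF4 (0.78), MRM3 (0.70), MRM1 (0.59) and RPUSD4 (0.40). Of 11 translation factors 2 were lower and 0 higher: the elongation factor GFM1 (-1.13, SE 0.20) and the initiation factor MTIF3 (-0.38, SE 0.11). Of 17 tRNA synthetases 3 were higher and 0 lower: MARS2, EARS2 and AARS2, at 0.65, 0.67 and 0.65. Of 33 complex I subunits 1 was lower and 0 higher, NDUFB5 at -0.82. Of 11 biogenesis regulators 4 were higher and 0 lower: MYC, NRF1, ESRRA and GABPB1, by 0.37 to 0.48. No cytosolic ribosomal protein passed.

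Between the lines, 21.2% of all genes were called higher and 16.4% lower, and 31.9% and 24.3% in the fit of the brighter genes, beside which the lists are to be read. Subunits of complexes III, IV and V were higher in 0 and lower in 8 of 32 (median -0.17), ATP5MC1 of the ATP synthase at -0.52 and CYC1 of complex III at -0.36 among them. Complex I had 3 higher and 9 lower of 33 (median -0.11), with NDUFA10 at 0.93, NDUFS1 at 0.80 and NDUFB5 at -0.66. Translation factors had 0 higher and 4 lower of 11 (median -0.13), GFM1 at -1.24 (SE 0.17). Assembly and RNA processing had 4 higher and 4 lower of 24 (median -0.033), with MTERF4 at 0.65 and MRM2 at -0.55. The tRNA synthetases had 5 higher and 7 lower of 17 (median 0.022), with PARS2 at 0.49 and NARS2 at -0.45. Mitochondrial transcription had 3 higher and 5 lower of 14 (median -0.091): TEFM, an elongation factor, had 0.61, the DNA-packaging factor TFAM -0.58, POLRMT -1.17 and MTERF1 -7.48 (SE 0.14). The regulators had 2 higher and 5 lower of 11 (median 0.052), with GABPB1, a partner of an ETS factor, at 0.68 and the coactivator PPARGC1A at -3.53 (SE 0.17). Ribosome proteins with other symbols had 1 higher and 2 lower of 6, and cytosolic ribosomal proteins 1 higher, RPL3 (0.38), and 0 lower of 34. All 5 intestinal markers were lower in HCT15 (median -4.09), and their part in the result was not tested.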

How the data were processed

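The deposited values are log2 signals that the authors made by RMA in Affymetrix Power Tools, as the submitters' processing notes name them. No version, and no reason for the separate scale of the HT115 WT arrays, is given in the sources used here. Amplified cDNA was labelled with biotin, per the labels' protocols. Probe sets took their gene from GEO's platform table: of 54675, 41097 had 1 symbol, 1801 several and 11777 none, and only the first kind was used. In limma 3.58.1 (R 4.3.3) all 24 arrays were fitted with 8 group means and moderated variances without a trend (16 residual and 4.83 prior degrees of freedom), and standard errors and intervals come from this fit. A gene was called at an adjusted p under 0.05 over all genes of the comparison. The number of arrays limits the precision. The members and gene lists were chosen with earlier results of these data known. The genes named are, per comparison, the 10 largest called rises and falls (with fewer than 5 calls, also the 5 smallest p), members whose probe sets disagree in sign, and 6 genes in every induction (MRPS18A, MRPS18B, MRPS18C, MRPS30, MRPL12 and MRPS12). From each list up to 4 called genes, or the 2 with the smallest p, could be named. The fit was tested on simulated data. Array numbers were taken to pair Tet and untagged arrays of HCT15, where deviations from the group means of same-numbered arrays correlated at 0.58, 0.49 and 0.42 (WT) and 0.77, 0.62 and 0.31 (Y330H) over all genes, but not of HT115 (0.59, 0.051 and 0.32 for E314K, 0.23, 0.19 and -0.0045 for WT).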

Additional observations from a re-analysis of the deposited data

How the results depend on the processing

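Alternatives were equal array medians or quantiles within each scale, the brighter 50% of genes, the mean of a gene's probe sets, a variance trend, arrayWeights, fewer arrays, a replicate block and leaving out each array. In HCT15 WT induction the count of called members was 2 with arrayWeights (MRPS10 and MRPL49), or 2.6% against 7.27% of all genes, and 1 with the replicate block. It was 0 under the other alternatives, as it was in the other inductions and their differences under all. Between the HCT15 derivatives the 4 members became 7 among the brighter 50% (9.21% against 12.9% of these genes) and 19 with arrayWeights (24.7% against 18.9% of all genes). With only the arrays compared the count was 0, and 0.86% of all genes passed. It was 2 with the 18 arrays, 0 with the replicate block, 2 to 4 without single arrays and 7 on Tet arrays (chosen after the data were seen). The median there was 0.10 with arrayWeights and 0.11 on Tet arrays, and -0.039 to 0.065 without single arrays. Between the lines the count was 24 with the replicate block and 28 to 38 without single arrays. These line counts stand without the share of all genes and do not set the members apart. The median in HT115 E314K was -0.0038 to 0.036 without single arrays. With equal array medians the line split was 10 higher and 27 lower, together 48.1% of members against 36.1% of all genes. The block changed no other count. The cause of these shifts was not tested.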

Other observations

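Probe sets that name a mitochondrial ribosomal gene together with another gene, 4 in all, were left out of the counts. The probe set shared by MRPL51 and SPTLC1 had 11.13 ± 0.08 (SD, n = 3) on untagged and 11.23 ± 0.06 on Tet arrays of HCT15 WT, and 11.55 ± 0.03 on untagged HT115 E314K arrays. That of MRPS24 and its readthrough transcript with URGCP had 12.55 ± 0.13, 12.56 ± 0.15 and 12.92 ± 0.05 in the same order. That of MRPL53 and CCDC142 had 9.79 ± 0.13, 9.77 ± 0.17 and 9.89 ± 0.17, and that of MRPS31P5 and THSD1 had 7.68 ± 0.29, 8.03 ± 0.29 and 7.42 ± 0.13.

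Within groups of the 18 arrays of one scale, some pairs of members moved together and others moved apart. There the deviations from the group means gave a median Pearson's r of 0.13 over the 2926 pairs of members. The quartiles were -0.23 and 0.49. The points share arrays, no value for other genes was set beside these, and this is a description with no test. The HT115 WT arrays were not part of it, and no correlation between members was computed for them. Above their own mean over the HT115 WT arrays were 64 members on untagged array 1, 34 on array 2 and 9 on array 3.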
